A study of Mus musculus with 12 samples.

Results

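The Cyp2a, Cyp2d and Cyp2j subfamilies of cytochrome P450 hold enzymes that oxidise drugs, steroids and fatty acids, and 9 of their genes were followed in mouse kidney cortex: Cyp2a4, Cyp2a5, Cyp2d9, Cyp2d12, Cyp2d22, Cyp2d26, Cyp2j5, Cyp2j11 and Cyp2j13. They are 9 of the 47719 genes in the deposited expression table, which holds a further 11 protein-coding genes of these subfamilies. The genes were chosen by subfamily with their levels in this table, across all 4 groups, already known; the rule sets no fold change and no minimum level, so there is no threshold to stand inside or outside of. For that reason every fold change and group difference of the 9 genes is given as a description, without a p-value. All 9 were at 1 FPKM or more in all 12 libraries, where FPKM is fragments per kilobase of transcript and per unit of sequencing depth, a level per length.

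RNA was sequenced from kidney cortex of male C57BL6/J mice, in 4 groups of 3 libraries. PF mice were pair-fed an isocaloric control diet with maltose-dextrin and injected with saline, and EtOH mice ate the Lieber-DeCarli liquid diet, in which ethanol was raised in steps to 6%, and were injected with saline. PF4hLPS and EtOH4hLPS mice received the same diets and 10 mg/kg lipopolysaccharide (LPS, from the outer membrane of E. coli) into the peritoneum in place of saline. All 4 groups were on their diet for 6 weeks, were killed 4 hours after injection and have no engineered allele named in the labels, which give an age of 8 weeks without saying whether that is at the start or the end of feeding. The labels name the source whole kidney and the region cortex, and they do not say that the 3 replicates of a group are separate mice, so errors measure the spread between these libraries.

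Cytochrome P450 enzymes sit in the endoplasmic reticulum, carry a heme group and take electrons from P450 reductase, the product of Por. Cyp2a and Cyp2d enzymes hydroxylate foreign compounds and steroids, and several of their genes differ between the sexes in mouse liver. Cyp2j enzymes are epoxygenases: they turn arachidonic acid into epoxyeicosatrienoic acids, which act on tubular transport and vessel tone in the kidney and are hydrolysed to diols by soluble epoxide hydrolase, the product of Ephx2.

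The 3 subfamilies lie in separate gene clusters (GRCm38, also called mm10; positions from GENCODE M21). Cyp2a4 (ENSMUSG00000074254) lies at chr7:26307169-26315088 on the plus strand and Cyp2a5 (ENSMUSG00000005547) at chr7:26835305-26843548 on the same strand. On chromosome 15 the order is Cyp2d22 (ENSMUSG00000061740, chr15:82370527-82380260, minus strand), Cyp2d9 (ENSMUSG00000068086, chr15:82433437-82456845, plus), Cyp2d12 (ENSMUSG00000096852, chr15:82555072-82560403, plus) and Cyp2d26 (ENSMUSG00000022445, chr15:82790101-82794294, minus). On chromosome 4 the order is Cyp2j13 (ENSMUSG00000028571, chr4:96027534-96077546), Cyp2j11 (ENSMUSG00000066097, chr4:96294508-96348662) and Cyp2j5 (ENSMUSG00000052520, chr4:96628773-96664154), all on the minus strand.

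Some members are near copies of each other, which limits how well their fragments can be assigned. Cyp2a4, a steroid hydroxylase, and Cyp2a5, the mouse coumarin hydroxylase, differed at 23 of 1485 coding bases (98.5% identity, stop codon included). The longest coding stretch without a difference was 216 bases. Of all 50-base windows of the Cyp2a4 transcript 36.1% also occurred in Cyp2a5, and of those of Cyp2a5 31.0% occurred in Cyp2a4. At 100 bases these shares were 11.2% and 9.6%. A 60-base stretch of exon 2, coding bases 197 to 256, is shown because it is among the places where fragments can tell the genes apart; capitals mark the 3 differing bases. It lies at chr7:26307666-26307725 in Cyp2a4 and chr7:26835811-26835870 in Cyp2a5, both on the plus strand.
Cyp2a4: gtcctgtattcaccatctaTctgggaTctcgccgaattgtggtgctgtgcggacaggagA
Cyp2a5: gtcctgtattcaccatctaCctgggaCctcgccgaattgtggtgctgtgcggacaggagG

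Cyp2d9, a testosterone hydroxylase that is higher in males in mouse liver, and Cyp2d12 were 92.1% identical in coding sequence, and the other Cyp2d pairs were between 80.1 and 83.2% identical. Of the 50-base windows, 29.0% of Cyp2d9 and 17.9% of Cyp2d12 occurred in at least 1 other gene, against 10.5% for Cyp2d26 and 6.1% for Cyp2d22. For Cyp2j5, Cyp2j11 and Cyp2j13 the shares were 0.2, 1.3 and 0.2%, so the Cyp2j levels depend least on how shared fragments were divided. How the authors' software divided them is not given in the sources used here, and the levels of Cyp2a4, Cyp2a5, Cyp2d9 and Cyp2d12 are therefore uncertain to that degree.

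The promoters of Cyp2a4 and Cyp2a5 are as alike as their coding sequences, and they are shown because the levels of these genes differed with diet to unequal extents. Over the 250 bases before each RefSeq start site (GRCm38.p6) they aligned at 249 bases with 4 differences, 98.4% identity; capitals mark differing or unpaired bases. The stretches lie at chr7:26306942-26307191 and chr7:26835089-26835338, plus strand.
Cyp2a4: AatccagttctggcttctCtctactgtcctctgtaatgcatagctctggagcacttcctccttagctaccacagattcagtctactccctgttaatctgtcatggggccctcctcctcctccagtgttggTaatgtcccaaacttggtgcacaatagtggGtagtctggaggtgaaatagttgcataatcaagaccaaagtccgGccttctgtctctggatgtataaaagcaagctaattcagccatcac
Cyp2a5: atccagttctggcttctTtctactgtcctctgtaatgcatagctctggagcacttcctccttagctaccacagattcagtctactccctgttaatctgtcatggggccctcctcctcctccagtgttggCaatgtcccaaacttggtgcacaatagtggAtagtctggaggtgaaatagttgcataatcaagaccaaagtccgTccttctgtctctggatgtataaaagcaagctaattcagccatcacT

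The promoters of Cyp2d9 (chr15:82452127-82452376, plus strand) and Cyp2d26 (chr15:82794246-82794495, minus strand) are shown because both genes were higher on the ethanol diet. They aligned at 204 bases with 75.0% identity, and the alignment needed 92 gap positions, so the likeness is partial. The RefSeq start of Cyp2d9 lies inside the longer GENCODE gene given above. Capitals mark matches, on either strand, to the motifs searched.
Cyp2d9: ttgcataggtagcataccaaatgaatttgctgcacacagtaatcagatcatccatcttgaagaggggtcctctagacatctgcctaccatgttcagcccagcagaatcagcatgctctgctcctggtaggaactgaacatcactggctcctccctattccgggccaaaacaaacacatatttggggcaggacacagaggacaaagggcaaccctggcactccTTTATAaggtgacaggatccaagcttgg
Cyp2d26: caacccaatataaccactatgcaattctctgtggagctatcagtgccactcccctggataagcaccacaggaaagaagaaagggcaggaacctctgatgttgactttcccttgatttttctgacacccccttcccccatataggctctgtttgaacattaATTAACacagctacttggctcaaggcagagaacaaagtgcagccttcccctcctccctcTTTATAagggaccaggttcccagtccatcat

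The motifs searched in these 250 bases, on both strands, were the TATA box TATAAA, the element GTTAAT, the nuclear receptor element AGGTCA, the E-box CACGTG and an HNF4-type site CAAAGTCCA. RefSeq promoters were found for 7 of the 9 genes, with no entry for Cyp2d12 and Cyp2d22. Matches to TATAAA began 28 to 31 bases before the start in Cyp2a4, Cyp2a5, Cyp2d9 and Cyp2d26, and 128 bases before it in Cyp2j5. In Cyp2a4 and Cyp2a5 the match read in the direction of the gene. In Cyp2d9, Cyp2d26 and Cyp2j5 it was on the opposite strand, as TTTATA. On either strand, 13.0% of 27025 promoters of this length hold it. GTTAAT was present in Cyp2a4, Cyp2a5 and, on the opposite strand as ATTAAC, in Cyp2d26 (6.5% of promoters), and AGGTCA in Cyp2j5 (13.8%). None of the 7 held CACGTG (6.0%) or CAAAGTCCA (0.4%), and Cyp2j11 and Cyp2j13 held none of the 5 motifs in this window.

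Depth and the dependence on GC content differed between libraries. Estimated from the steps between low values, depth relative to PF library 1 was 0.722 to 1.197 in saline libraries and 0.49 to 0.763 in LPS libraries. Between 12354 and 13092 genes reached 1 FPKM. The slope of a gene's deviation from its group mean, per 10% GC, was lowest in 3 libraries, called the libraries with a GC trend here. It was -0.412 log2 units in PF4hLPS library 2, -0.308 in EtOH4hLPS library 1 and -0.248 in PF library 1. The slope lay between -0.077 and 0.214 in the remaining 9. Each slope is relative to a mean of 3 libraries, so the slopes of a group balance out. PF library 3 had 0.213, so the slopes do not tell whether PF library 1 or 3 departs, and only library 1 was left out. Cyp2d transcripts had 50.3 to 53.9% GC and Cyp2j transcripts 42.7 to 44.1%, so diet differences of both are also given without these 3 libraries. The markers of the labelled tissue were present: all 8 general proximal tubule markers and all 4 of the S3 segment were at 1 FPKM or more in all 12 libraries, while the 3 adrenal cortex markers were under 1 FPKM in all of them.

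Cyp2j5 dominated the group. Averaged over the 12 libraries, Cyp2j5 had 1124 FPKM and ranked 102 of the 14109 genes that passed the expression filter. It held 54.2 to 66.7% of the summed FPKM of the 9 genes in each library. Cyp2j13 followed with 192 FPKM, then Cyp2a4 with 167, Cyp2j11 with 164, Cyp2a5 with 97.1, Cyp2d9 with 47.3, Cyp2d26 with 36.2, Cyp2d12 with 20.1 and Cyp2d22 with 2.94. Cyp2j13 (148 to 267 FPKM), Cyp2a4 (113 to 213) and Cyp2j11 (134 to 194) overlapped over the libraries, as did Cyp2a5 with Cyp2a4, and Cyp2d9, Cyp2d26 and Cyp2d12 with their neighbours. Cyp2j5 overlapped no other gene of the list, and neither did Cyp2d22, whose highest library (4.6 FPKM) lay under the lowest of Cyp2d12 (6.43).

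**Figure D1:**
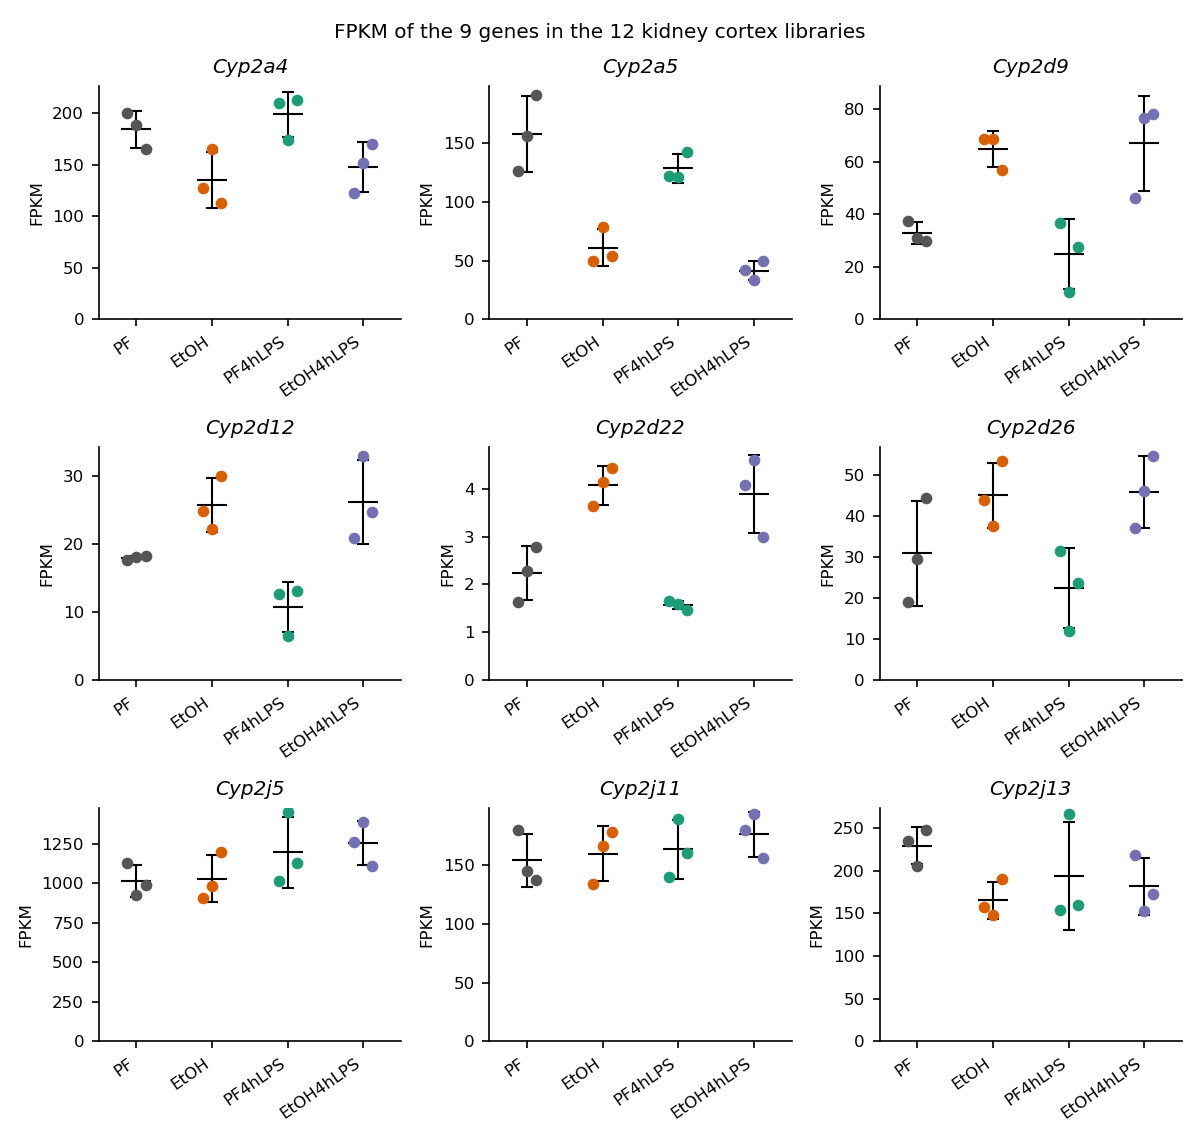
FPKM of each of the 9 genes (vertical axes, each starting at 0) in the 3 libraries of PF, EtOH, PF4hLPS and EtOH4hLPS (coloured points), with the mean and SD of each group (bars). Cyp2a5 was between 33.3 and 78.9 FPKM in the 6 ethanol libraries and between 121 and 191 in the 6 pair-fed libraries, and the 3 Cyp2j panels show no separation that held in both saline and LPS.

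In ethanol-fed mice the group means of the 2 Cyp2a genes were lower and those of the 4 Cyp2d genes higher than in pair-fed mice, in both LPS states. The diets overlapped in at least 1 LPS state for Cyp2d26 and the 3 Cyp2j genes. The groups did not overlap, within saline and within LPS alike, for Cyp2d9, Cyp2d12 and Cyp2d22, which were higher with ethanol, and for Cyp2a4 and Cyp2a5, which were lower. Of all genes tested 0.921% were separated in this way upwards and 0.999% downwards; because the list was chosen with results known, nothing is read from 3 and 2 of 9. The fits behind the fold changes ran over all 14109 genes. At an adjusted p under 0.05 they called 0.0284% of genes by diet in saline, either direction, 0.0354% higher and 0.0638% lower by diet under LPS, and 0.0992% higher and 0.22% lower by diet averaged over both. Of the 9 genes, none was called in saline, Cyp2a5 was called lower under LPS, and Cyp2a5 lower and Cyp2d22 higher in the average; again nothing is read from these counts. The Cyp2d22 call was left in 5 of 19 alternative analyses, and the omission of any 1 library other than PF4hLPS library 1 or EtOH4hLPS library 3 ended it. The Cyp2a5 call under LPS was left in 4 of 13, and leaving out PF4hLPS library 2 or 3 or any 1 of the EtOH4hLPS libraries ended it.

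Cyp2a5 had lower levels in both ethanol groups. It measured 126, 156 and 191 FPKM in the PF libraries, and 49.9, 78.9 and 53.5 in the EtOH libraries. With LPS it measured 122, 121 and 143 FPKM in PF4hLPS, and 41.7, 33.3 and 49.4 in EtOH4hLPS. Every ethanol library lay below every pair-fed library. The mean with ethanol was 0.385 of the pair-fed mean in saline and 0.322 of it under LPS. On the log2(FPKM + 1) scale, used for all fold changes here, the diet difference of Cyp2a5 was -1.37 ± 0.23 (SE) in saline, -1.62 ± 0.23 under LPS and -1.50 ± 0.16 averaged over both. Without the 3 libraries with a GC trend the averaged difference was -1.60 ± 0.19.

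Cyp2a4 differed less by diet than its near copy. It measured 200, 188 and 165 FPKM in PF, 127, 165 and 113 in EtOH, 210, 174 and 213 in PF4hLPS, and 122, 152 and 170 in EtOH4hLPS. In saline the closest libraries of the 2 diets were both at 165 FPKM to 3 digits, so the groups were separated by less than 1 FPKM. The log2 diet difference of Cyp2a4 was -0.46 ± 0.20 in saline, -0.43 ± 0.20 under LPS and -0.45 ± 0.14 averaged, and -0.39 ± 0.16 without the 3 libraries with a GC trend. With every library scaled to an equal FPKM total it was smaller, -0.36 ± 0.24 in saline, -0.17 ± 0.24 under LPS and -0.26 ± 0.17 averaged. The averaged difference of Cyp2a5 was then -1.32 ± 0.19.

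The ratio of Cyp2a5 to Cyp2a4 within a library put both in 1 value that does not depend on library scaling. It was 0.63, 0.831 and 1.16 in PF, and 0.393, 0.479 and 0.473 in EtOH. With LPS it was 0.583, 0.693 and 0.67 in PF4hLPS and 0.342, 0.218 and 0.29 in EtOH4hLPS, and no ethanol library reached the lowest pair-fed ratio. The group means were 0.874 ± 0.268 (SD, n = 3), 0.448 ± 0.0482, 0.649 ± 0.0579 and 0.284 ± 0.062 in that order. Since the split between the 2 genes rests on few differing bases, their sum was followed as well. Cyp2a4 and Cyp2a5 together had 342 ± 15.4 FPKM in PF, 196 ± 41.7 in EtOH, 328 ± 30.9 in PF4hLPS and 190 ± 28.3 in EtOH4hLPS, and the log2 diet difference of the sum, averaged over LPS state, was -0.81 ± 0.14. The antisense gene Gm42375, which overlaps the 5′ end of Cyp2a4, was between 0.148 and 2.42 FPKM.

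**Figure D2:**
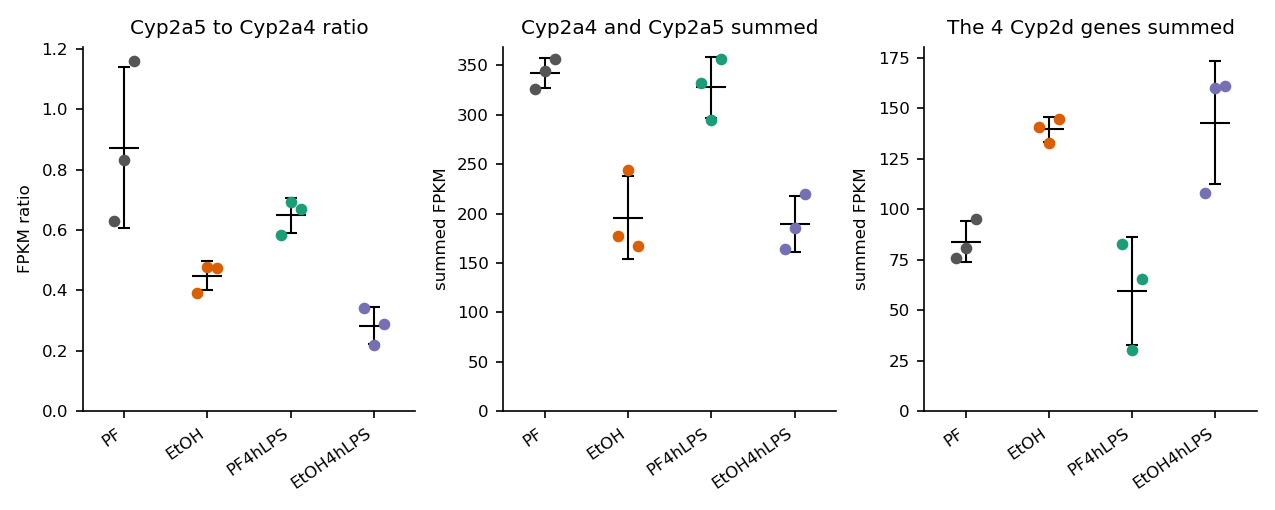
The ratio of Cyp2a5 to Cyp2a4 FPKM within each library (left), the sum of Cyp2a4 and Cyp2a5 (middle) and the sum of Cyp2d9, Cyp2d12, Cyp2d22 and Cyp2d26 (right), as points by library with the mean and SD of 3 libraries. The ratio and the Cyp2a sum are lower, and the Cyp2d sum is higher, in every ethanol library than in any pair-fed library of the same LPS state.

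Markers of other cells were set beside the Cyp2a values. The summed S3 segment markers (Slc7a13, Cyp7b1, Slc22a7 and Slc5a8) were 616 to 963 FPKM in PF and 517 to 660 in EtOH, which overlap. With LPS the sums were 680 to 1047 in PF4hLPS and 543 to 669 in EtOH4hLPS, which do not, though each marker alone overlapped between diets there. In saline Slc7a13 was lower with ethanol without overlap. The others overlapped, and the mean of Cyp7b1 was higher in EtOH (50.5 FPKM) than in PF (45.8). Slc22a7, an organic anion transporter of that segment, was also among the 3 genes whose levels followed Cyp2a4 most closely (Pearson r 0.90), with the membrane fusion gene Stx5a (0.914) and the splicing gene Rbm17 (0.87). These coefficients were taken on log2(FPKM + 1) over 12 libraries among 7502 protein-coding genes of at least 5 FPKM, and they are a description: the libraries share groups, depth and GC trend. The part of S3 cells in the Cyp2a values was not tested, and in whole tissue fewer cells of a type and less RNA per cell cannot be told apart.

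Genes known to respond to androgens in mouse kidney formed a list of 7, all of which passed the filter. None was called by LPS in either diet or by diet within an LPS state. In the average over LPS states 2 of 7 were called lower with ethanol, beside 0.22% of all genes tested. The list was chosen with earlier results known, so nothing is read from this count. The list median was -0.79 log2 units in the average, against -0.01 for all genes. The 2 were the fatty acid hydroxylases Cyp4a12a, with an averaged log2 difference of -2.25 (limma adjusted p = 0.0306), and Cyp4a12b, with -0.64 (limma adjusted p = 0.0306). In saline, where neither was called, Cyp4a12a measured 37.6 ± 13.0 FPKM in PF and 7.32 ± 0.578 in EtOH, and Cyp4a12b 2.84 ± 0.274 and 1.51 ± 0.232. Both fall outside the rule for named genes and were chosen after their values were seen, and how much sequence they share was not measured. The call of Cyp4a12a was lost in 12 of 20 alternative analyses and that of Cyp4a12b in 15 of 20, among them the omission of any PF or EtOH library.

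The Cyp2d genes were all higher on average in the ethanol groups. Cyp2d9 measured 37.5, 31.0 and 29.8 FPKM in PF against 68.6, 68.7 and 56.9 in EtOH. With LPS it measured 36.7, 10.3 and 27.3 FPKM in PF4hLPS against 46.0, 76.5 and 78.2 in EtOH4hLPS. The lowest ethanol library, at 46.0, lay above the highest pair-fed library, at 37.5. The ratio of the ethanol to the pair-fed mean was 1.98 in saline and 2.7 under LPS, where the log2 differences were 0.96 ± 0.37 and 1.53 ± 0.37. PF4hLPS library 2 was the lowest and EtOH4hLPS library 1 the lowest of its group, and both are libraries with a GC trend. Without the 3 such libraries the averaged log2 difference of Cyp2d9 was 1.16 ± 0.14, beside 1.24 ± 0.26 with them.

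Cyp2d12, the nearest relative of Cyp2d9 in this list, measured 17.7, 18.1 and 18.2 FPKM in PF and 24.8, 22.2 and 30.0 in EtOH. With LPS it measured 12.6, 6.43 and 13.1 FPKM in PF4hLPS and 20.8, 32.9 and 24.7 in EtOH4hLPS. The 3 PF libraries were nearly equal, and every EtOH library lay above them. The log2 diet difference was 0.48 ± 0.25 in saline and 1.24 ± 0.25 under LPS, and the average of 0.86 ± 0.18 was 0.78 ± 0.14 without the 3 libraries.

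Cyp2d22, which is often compared with human CYP2D6, was the least abundant of the 9. It measured 1.64, 2.29 and 2.78 FPKM in PF, 3.64, 4.14 and 4.44 in EtOH, 1.65, 1.59 and 1.47 in PF4hLPS, and 4.08, 4.60 and 3.00 in EtOH4hLPS. The lowest ethanol library, at 3.00, was above the highest pair-fed library, at 2.78. At this level the added 1 FPKM shrinks a fold change: the ratio of means was 1.82 in saline and 2.48 under LPS, and the averaged log2 difference was 0.79 ± 0.13, or 1.05 ± 0.17 with 0.1 FPKM added instead. Without the 3 libraries with a GC trend it was 0.70 ± 0.14, and the call was lost. Unlike the other Cyp2d genes, Cyp2d22 was not low in PF4hLPS library 2, where it deviated from its group by 0.01 log2 units.

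Cyp2d26 varied widely among the PF libraries. It measured 19.0, 29.6 and 44.5 FPKM in PF and 44.1, 37.7 and 53.5 in EtOH, and the groups overlapped through PF library 3. With LPS it measured 31.6, 12.1 and 23.8 FPKM in PF4hLPS and 37.1, 46.2 and 54.7 in EtOH4hLPS, which did not overlap. The averaged log2 difference was 0.84 ± 0.25, and 0.57 ± 0.17 without the 3 libraries with a GC trend. That was the greatest reduction among the 4 Cyp2d genes.

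In 2 of the 3 libraries with a GC trend, Cyp2d9, Cyp2d12 and Cyp2d26 all lay below their group means. In PF4hLPS library 2 Cyp2d9, Cyp2d12 and Cyp2d26 lay 1.02, 0.60 and 0.74 log2 units below their group means (deviations of -1.02, -0.60 and -0.74), and in EtOH4hLPS library 1 the deviations were -0.49, -0.29 and -0.29. In PF library 1 they were 0.20, -0.02 and -0.60, so Cyp2d9 was high and Cyp2d12 near its mean there, and Cyp2d22 deviated by -0.28. Cyp2j5, Cyp2j11 and Cyp2j13 deviated upwards in PF4hLPS library 2, by 0.29, 0.22 and 0.51. Between groups, the tested genes of the GC deciles that hold the 4 Cyp2d genes had a median diet difference of 0.00 to 0.04 log2 units averaged over LPS states and 0.06 to 0.11 under LPS. Those medians stand beside differences of 0.79 to 1.24 and 0.91 to 1.53 for the 4 genes. Over 14063 genes the Spearman coefficient of the diet difference with GC was 0.251 averaged, 0.347 under LPS and -0.034 in saline. The part of GC in the Cyp2d differences was not tested.

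**Figure D3:**
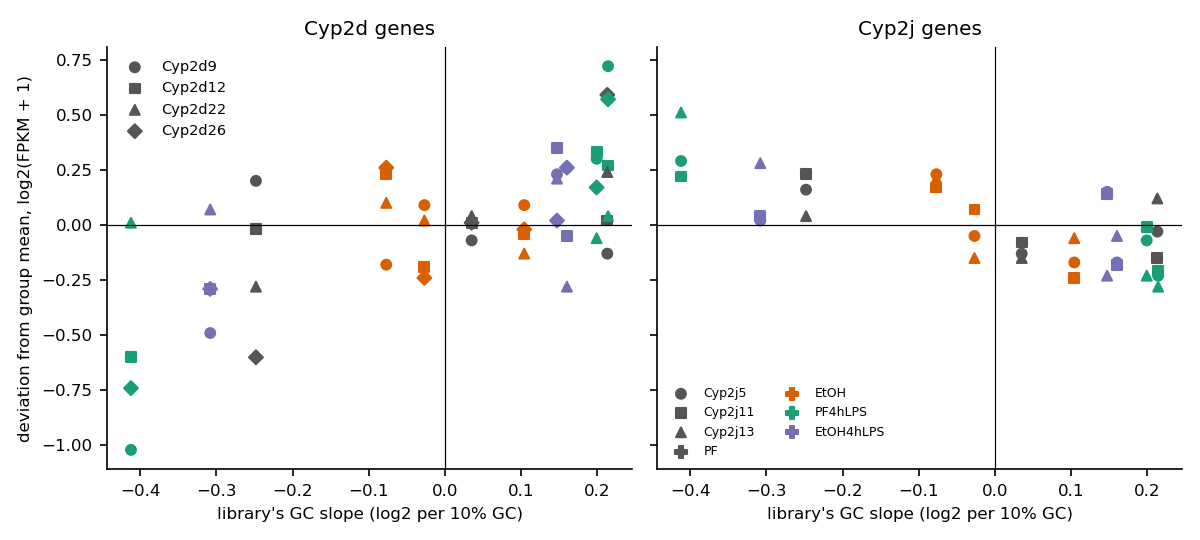
Deviation of each Cyp2d gene (left) and Cyp2j gene (right) from its group mean on the log2(FPKM + 1) scale, against the GC slope of the library, in log2 units per 10% GC; colours mark the 4 groups and symbols the genes. Libraries with slopes of -0.412 and -0.308 hold the lowest values of Cyp2d9 and Cyp2d12 in their groups, Cyp2d22 stays near 0 in both, and the Cyp2j genes lie above 0 in the library with the lowest slope.

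Among themselves the Cyp2d genes varied together to different degrees once group means were removed. The within-group coefficient over 12 libraries was 0.79 for Cyp2d9 with Cyp2d12, 0.69 for Cyp2d12 with Cyp2d26 and 0.59 for Cyp2d9 with Cyp2d26, and -0.22 to 0.34 for pairs with Cyp2d22. The genes whose levels followed Cyp2d9 most closely over the 12 libraries were Cyp2d12 (Pearson r 0.919), the progestin receptor gene Paqr5 (0.914) and the retinol dehydrogenase family gene Rdh16f2 (0.911). Rdh16f2 measured 51.9 ± 7.48 FPKM in PF, 79.2 ± 6.6 in EtOH, 34.8 ± 22.9 in PF4hLPS and 115 ± 62.6 in EtOH4hLPS. All these coefficients share the libraries' depth and GC trend and are descriptions only.

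Markers of other cells were set beside the Cyp2d values, and none of those named here was called by diet. The summed hepatocyte list (Alb, Apob, Ttr, Cyp2c29 and Cyp3a11) was 113 to 129 FPKM in PF, 163 to 214 in EtOH, 107 to 137 in PF4hLPS and 199 to 266 in EtOH4hLPS. Apob, which kidney tubules also express, was at 61.5 to 203 FPKM and, unlike the other members, was higher with ethanol without overlap in both LPS states, while Alb overlapped between diets in both LPS states and Ttr under LPS. The liver P450 genes Cyp2c29 and Cyp3a11 were at 0 to 0.147 and 0.0196 to 0.193 FPKM, and Alb, the most abundant liver transcript, at 4.59 to 15.0 FPKM. The summed distal convoluted tubule markers Slc12a3 and Pvalb were 40.7 to 73.5 and 70.3 to 91.1 FPKM, which overlap, and 22.2 to 63.5 and 66.0 to 106 with LPS, which do not. Taken alone under LPS, Slc12a3 was higher with ethanol without overlap, while Pvalb overlapped, with a log2 diet difference of 0.30 ± 0.43. Slc13a3, a transporter and 1 of the 8 general proximal tubule markers, was higher with ethanol without overlap in both states, by 0.74 ± 0.20 log2 units averaged. The rest of that list overlapped between diets in at least 1 LPS state. Their averaged differences ran from 0.06 ± 0.12 (Slc22a6) to 0.34 ± 0.17 (Slc34a1). The part of these cells in the Cyp2d values was not tested.

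The Cyp2j genes included the most abundant of the 9. Cyp2j5, the main renal epoxygenase gene of the mouse proximal tubule, measured 1126, 926 and 992 FPKM in PF and 908, 986 and 1196 in EtOH. With LPS it measured 1012, 1449 and 1131 FPKM in PF4hLPS and 1262, 1390 and 1110 in EtOH4hLPS. All pairs of groups overlapped. The log2 diet difference was 0.02 ± 0.21 in saline, 0.08 ± 0.21 under LPS and 0.05 ± 0.15 averaged, and the average was 0.15 ± 0.17 without the 3 libraries with a GC trend.

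Cyp2j11 measured 180, 145 and 138 FPKM in PF, 134, 167 and 179 in EtOH, 140, 190 and 161 in PF4hLPS, and 180, 194 and 156 in EtOH4hLPS. It overlapped in every comparison and had an averaged log2 diet difference of 0.08 ± 0.14, or 0.19 ± 0.15 without those 3 libraries. Its level was 0.131 to 0.169 of that of Cyp2j5 in each library, a narrow range, and the 2 genes had a within-group coefficient of 0.92 over 12 libraries. Cyp2j13 measured 235, 206 and 248 FPKM in PF and 158, 148 and 190 in EtOH, which did not overlap, and 154, 267 and 160 in PF4hLPS and 219, 153 and 173 in EtOH4hLPS, which did. Its log2 diet difference was -0.48 ± 0.24 in saline, -0.06 ± 0.24 under LPS and -0.27 ± 0.17 averaged. The highest PF4hLPS value came from library 2, with the strongest GC trend, and without the 3 such libraries the difference of Cyp2j13 was 0.05 ± 0.22 under LPS and -0.20 ± 0.15 averaged.

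The genes whose levels followed Cyp2j5 most closely were the secretory pathway gene Ier3ip1 (Pearson r 0.933), the RNA cyclase Rtca (0.932) and the BMP receptor gene Bmpr1a (0.924), over the same 12 libraries. Of the unlisted genes of the 3 subfamilies, 11 are protein coding, and 3 passed the filter, all Cyp2j. Cyp2j6 averaged 11.6 ± 0.447 FPKM in PF and 15.6 ± 3.10 in PF4hLPS, Cyp2j9 6.45 ± 1.57 and 8.87 ± 2.09, and Cyp2j7 1.31 ± 0.465 and 0.982 ± 0.231. None of the 3 was called in any of the 6 comparisons. The highest value of Cyp2j8 was 0.751 FPKM, and Cyp2a12, Cyp2a22, Cyp2d10, Cyp2d11, Cyp2d34, Cyp2d40 and Cyp2j12 stayed at or under 0.162 FPKM in all libraries.

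None of the 9 genes was called by LPS with the values as deposited, though some alternatives given below called Cyp2d12, Cyp2j13 or Cyp2a5. In pair-fed mice LPS raised 11.3% and lowered 6.89% of all genes tested, and in ethanol-fed mice 10.7% and 6.39% of them. With every library scaled to an equal FPKM total the split turned from 1589 raised and 972 lowered to 844 and 2679 in pair-fed mice, and from 1504 and 902 to 969 and 1861 in ethanol-fed mice. The log2 difference by LPS had a median of -0.29 over the 9 in pair-fed mice, from -0.75 to 0.23, and 0.03 in ethanol-fed mice, from -0.53 to 0.29, against -0.01 and 0.02 over all genes. The 2 LPS comparisons share no libraries, but each shares its saline or LPS libraries with a diet comparison, so their values are set side by side only.

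With the values as deposited, the 4 Cyp2d genes had lower means under LPS in pair-fed mice and near-equal means in ethanol-fed mice. Cyp2d12 went from 18.0 ± 0.282 FPKM in PF to 10.7 ± 3.72 in PF4hLPS (SD, n = 3), without overlap, a log2 difference of -0.75 ± 0.25, and from 25.7 ± 3.98 in EtOH to 26.1 ± 6.17 in EtOH4hLPS, 0.01 ± 0.25. For Cyp2d9, Cyp2d26 and Cyp2d22 the pair-fed differences were -0.55 ± 0.37, -0.46 ± 0.35 and -0.32 ± 0.18, with overlapping groups, beside 0.01 ± 0.37, 0.03 ± 0.35 and -0.06 ± 0.18 in ethanol-fed mice. The difference between diets in the LPS response was 0.76 ± 0.35 for Cyp2d12, 0.56 ± 0.52 for Cyp2d9, 0.49 ± 0.50 for Cyp2d26 and 0.25 ± 0.25 for Cyp2d22. The interaction called 0.0284% of all genes and none of the 9. Without the 3 libraries with a GC trend the pair-fed difference of Cyp2d9 was 0.06 ± 0.20 and that of Cyp2d12 -0.46 ± 0.20. Scaled to equal FPKM totals, Cyp2d9, Cyp2d12, Cyp2d22 and Cyp2d26 stood at -0.32, -0.32, -0.33 and -0.31 in ethanol-fed mice (median of all genes -0.27). In pair-fed mice they stood at -1.02, -1.21, -0.63 and -0.94 (median -0.41).

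Cyp2a5 was lower under LPS in ethanol-fed mice, from 60.8 ± 15.8 to 41.4 ± 8.08 FPKM, a log2 difference of -0.53 ± 0.23. The groups did not overlap but nearly touched, with the closest libraries at 49.9 FPKM in EtOH and 49.4 in EtOH4hLPS. In pair-fed mice, where the groups overlapped, the difference was -0.28 ± 0.23. Cyp2a4 differed by 0.11 ± 0.20 and 0.14 ± 0.20. Cyp2j5 averaged 1015 ± 102 FPKM in PF and 1197 ± 226 in PF4hLPS, and 1030 ± 149 in EtOH and 1254 ± 140 in EtOH4hLPS, log2 differences of 0.23 ± 0.21 and 0.29 ± 0.21. Cyp2j11 differed by 0.08 ± 0.19 and 0.15 ± 0.19, and Cyp2j13 by -0.29 ± 0.24 and 0.13 ± 0.24. The signs of the small positive values hang on scaling. The equal-total scaling moved the median of all genes by LPS to -0.41 for pair-feeding and -0.27 for ethanol; it put Cyp2j5 at -0.27 and -0.05, Cyp2a4 at -0.39 and -0.20 and Cyp2j11 at -0.41 and -0.19, and Cyp2j13 in ethanol-fed mice at -0.21. Quantile normalization, with all-gene medians of -0.11 and -0.12, gave negative values for the same genes, such as -0.30 and -0.22 for Cyp2j5. Cyp2j5 was thus above the median gene under equal totals and below it under quantile normalization. Some alternatives also called members: Cyp2d12 was lower in pair-fed mice in 5 of 13, which were equal totals, quantile normalization, median-ratio factors and the omission of PF4hLPS library 1 or 3. Cyp2j13 was called lower there under equal totals, and Cyp2a5 in ethanol-fed mice under equal totals and quantile normalization.

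**Figure D4:**
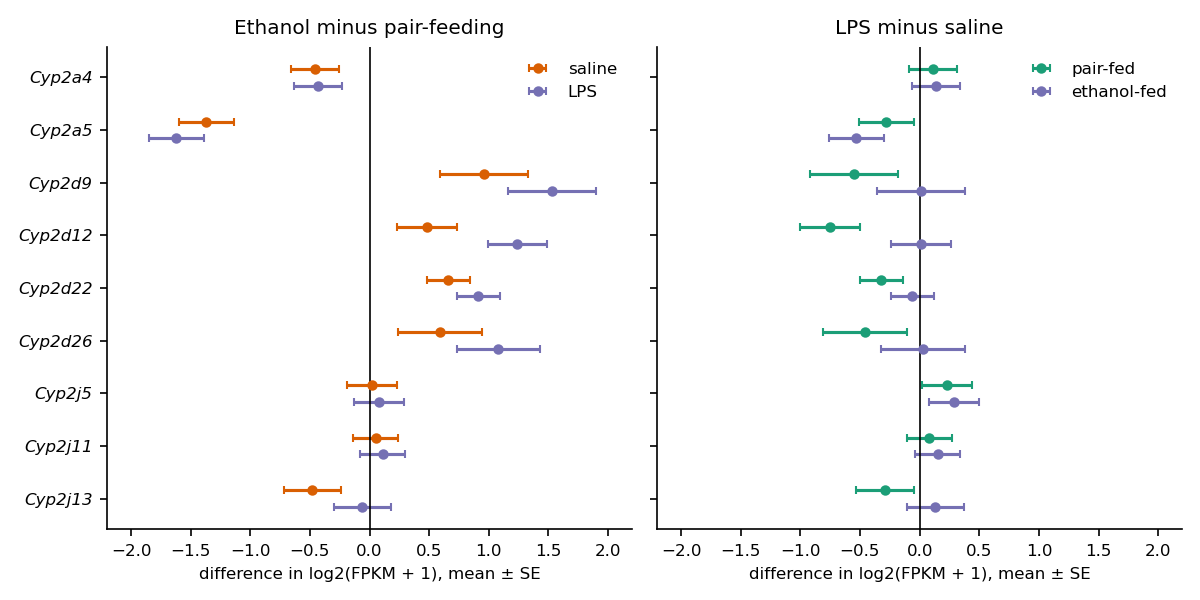
Differences in log2(FPKM + 1), with standard errors of the fit, for ethanol minus pair-feeding (left; saline in orange, LPS in purple) and LPS minus saline (right; pair-fed in green, ethanol-fed in purple). On the left Cyp2a5 lies lowest, at -1.37 and -1.62, and the 4 Cyp2d genes lie between 0.48 and 1.53; on the right the 9 genes lie between -0.75 and 0.29, and the positive values of Cyp2a4, Cyp2j5 and Cyp2j11 turn negative under equal-total or quantile scaling.

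Genes that serve or regulate P450 enzymes were followed beside the 9 genes, in lists chosen with earlier results known. Of 15 electron donor and heme synthesis genes, 1 was called in each diet: Alas1, the rate-limiting enzyme of heme synthesis, rose from 55.7 ± 29.0 to 152 ± 24.8 FPKM in pair-fed mice (log2 difference 1.55, limma adjusted p = 0.0076), a call lost under equal-total scaling. In ethanol-fed mice Alas1 rose by 1.12 (limma adjusted p = 0.0406), a call lost in 12 of 20 alternative analyses, among them the omission of any EtOH library. The list medians were -0.07 and 0.02. Por, the reductase itself, measured 84.4 ± 17.6 FPKM in PF, 86.8 ± 8.09 in EtOH, 71.5 ± 18.4 in PF4hLPS and 113 ± 55.2 in EtOH4hLPS, and was called in no comparison.

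Of 16 tested transcription factors of xenobiotic and liver-type gene control, LPS raised 2 and lowered 6 under pair-feeding, and raised 2 and lowered 5 under ethanol, with medians of -0.55 and -0.40. Cebpb, an acute-phase activator, rose from 1.04 ± 0.399 to 31.4 ± 4.30 FPKM in pair-fed mice (log2 difference 4.00, limma adjusted p = 1.19e-07) and by 3.58 in ethanol-fed mice (limma adjusted p = 3.46e-07). Hlf, a clock-output factor, fell with log2 differences of -1.70 (limma adjusted p = 0.00261) and -1.15 (limma adjusted p = 0.0256); the ethanol-fed call was lost in 6 of 20 alternative analyses, among them the omission of any EtOH library. Tef, of the same family, fell in pair-fed mice (log2 difference -1.12, limma adjusted p = 0.00857). Hnf4a, a nuclear receptor that drives many P450 genes, fell from 125 ± 13.2 to 65.6 ± 16.8 FPKM in pair-fed mice (log2 difference -0.95, limma adjusted p = 0.0188), a call lost without PF library 2 or 3, PF4hLPS library 3 or the low-value filter. In ethanol-fed mice Hnf4a measured 118 ± 13.9 and 72.0 ± 21.1 FPKM (log2 difference -0.74, limma adjusted p = 0.0607). By diet, none of the 16 was called.

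Eicosanoid genes split by enzyme. Of 9 tested, LPS raised 2 and lowered 1 under pair-feeding, and raised 2 and lowered 2 under ethanol, with medians of -0.07 and -0.17. Ptgs2, the inducible cyclooxygenase, rose by 2.91 and 3.20 log2 units (limma adjusted p = 2.7e-07 and 1.13e-07), and Ptges, a prostaglandin E synthase, by 1.05 and 1.52 (limma adjusted p = 0.00392 and 0.000277), the former call lost under equal-total scaling. Ptgs1, the constitutive cyclooxygenase, fell, with log2 differences of -1.30 and -0.77 (limma adjusted p = 0.0003 and 0.0104). Hpgd, which degrades prostaglandins, fell in ethanol-fed mice, with a log2 difference of -1.45 (limma adjusted p = 0.00783). Ephx2, which hydrolyses the epoxides made by Cyp2j enzymes, was called in no comparison: it measured 309 ± 31.3 FPKM in PF, 221 ± 19.7 in EtOH, 307 ± 46.5 in PF4hLPS and 279 ± 9.87 in EtOH4hLPS.

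Other Cyp2 genes were mostly low in this tissue, and 6 of 29 passed the filter. LPS raised 1 and lowered 2 under pair-feeding, and raised 1 and lowered 1 under ethanol, with medians of -0.29 and -0.41. Cyp2b10, the classic target of the xenobiotic receptor CAR, rose in pair-fed mice from 0.246 ± 0.199 to 3.48 ± 2.43 FPKM (log2 difference 1.72, limma adjusted p = 0.00322). Cyp2u1, a fatty acid hydroxylase, fell with log2 differences of -0.85 and -0.90 (limma adjusted p = 0.00568 and 0.0041). Cyp2s1 fell in pair-fed mice (log2 difference -0.66, limma adjusted p = 0.0246), a call lost without PF library 2 or 3, PF4hLPS library 2 or the low-value filter. Cyp2e1, the ethanol-oxidising P450, measured 1097 ± 146 FPKM in PF, 664 ± 134 in EtOH, 1537 ± 205 in PF4hLPS and 1155 ± 109 in EtOH4hLPS. It rose with LPS in ethanol-fed mice (log2 difference 0.81, limma adjusted p = 0.0221), a call lost in 7 of 20 alternative analyses, among them the omission of EtOH library 1 or 2 or EtOH4hLPS library 1 or 3. By diet Cyp2e1 was lower with ethanol without overlap in both LPS states, an averaged log2 difference of -0.57 that was not called (limma adjusted p = 0.189).

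Of 29 tested genes of a list made up mainly of conjugating enzymes, which attach polar groups to P450 products, and including the quinone reductase gene Nqo1, 2 rose in each diet with LPS and 1 fell in pair-fed mice, with medians of -0.11 and 0.18. The sulfotransferase Sult1a1 rose by 1.79 and 1.30 log2 units (limma adjusted p = 8.41e-05 and 0.00106) and the acetyltransferase Nat2 by 1.48 and 1.38 (limma adjusted p = 0.000532 and 0.000933). The glucuronosyltransferase Ugt1a1 fell in pair-fed mice (log2 difference -1.03, limma adjusted p = 0.0456), which was lost in 12 of 20 alternative analyses, among them the omission of any PF library. None of the 29 was called by diet.

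**Figure D5:**
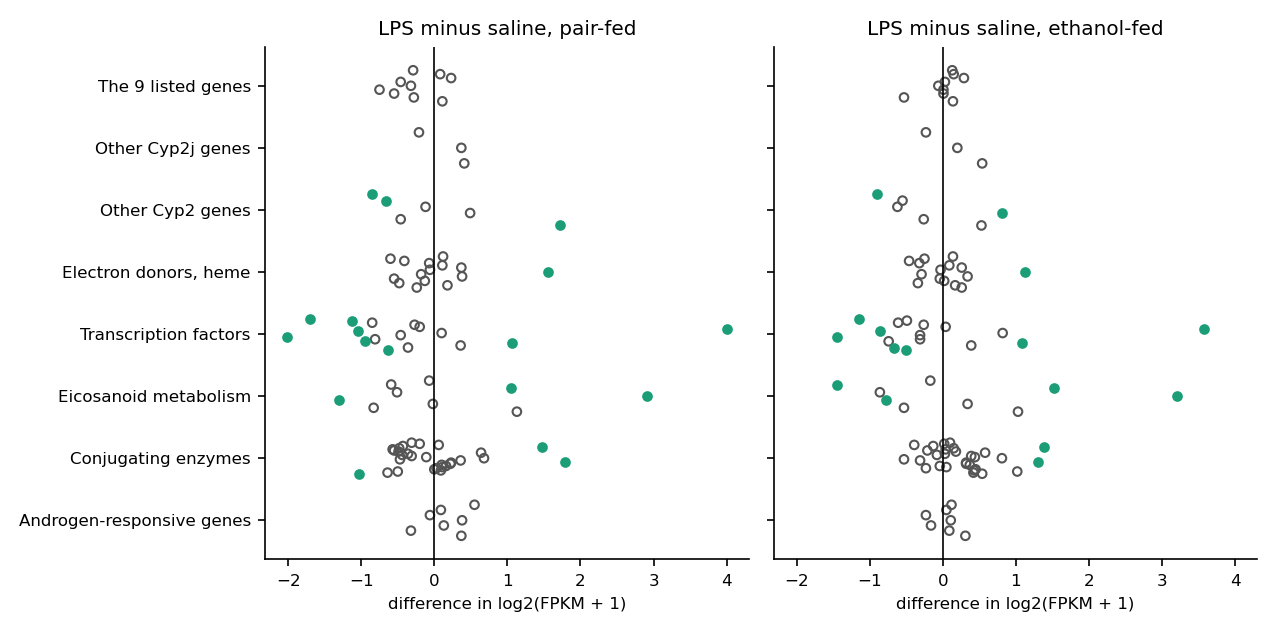
Differences in log2(FPKM + 1) by LPS in pair-fed (left) and ethanol-fed mice (right), 1 point per gene that passed the filter, by list; filled points have a limma adjusted p under 0.05. No point of the 9 listed genes is filled, and the highest point of the transcription factor row in pair-fed mice is Cebpb, at 4.00.

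Cell markers also moved with LPS. The summed endothelial markers Pecam1, Kdr and Emcn were 67.7 to 90.8 FPKM in the saline libraries and 17.6 to 27.2 in the LPS libraries, and the summed neutrophil markers S100a8, S100a9 and Ly6g 2.72 to 5.06 and 163 to 407, with Ly6g itself under 1 FPKM in all 12 libraries. The proximal tubule markers, summed, were 3016 to 3971 FPKM in PF and 2584 to 3326 in PF4hLPS, and 3449 to 3716 in EtOH and 3248 to 4078 in EtOH4hLPS. Their part in the LPS values of the 9 genes was not tested.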

How the data were processed

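RNA from 12 kidney cortex libraries was measured by total RNA sequencing. FPKM values were deposited by the authors; the aligner named is TopHat2 2.0.4, with mm10 as the build, per the submitters' processing notes, which also list Cuffnorm, Cuffdiff 2.1.1, Cufflinks 2.2.1 and, for read quality, FastQC 0.10.1. The sources used here do not state the strand setting, annotation release or treatment of reads with several matches. Of the 47719 genes, 47219 matched a GENCODE M21 symbol. The 14109 genes that reached 1 FPKM in 3 or more libraries were fitted together as log2(FPKM + 1) with limma 3.58.1 in R 4.3.3 (1 mean per group, trended and robust variance, two-sided, Benjamini-Hochberg threshold 0.05); summaries used Python 3.11.15. The fit was tested on simulated data. No fragment counts were used, so absolute depth is unknown. Members and gene lists were chosen with earlier results of these data known. Named from each list were up to 4 called genes with the highest difference by LPS in size, plus Por, Ephx2 and Hnf4a. Some genes of the rule and the marker lists are not reported here. Alternatives changed the pseudocount (0.1), filter, scaling, replicate block and libraries included.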

Additional observations from a re-analysis of the deposited data

How the results depend on the processing

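Counts of called genes by diet were small and moved with the processing, and the cause was not tested. In saline 4 genes were called, 8 without the low-value filter and 11 without the 3 libraries with a GC trend. Under LPS the 14 calls became 6 with a pseudocount of 0.1, 1 without the filter, 2 with equal totals and 2 with a replicate block. The 45 calls averaged over LPS state became 13 without the filter, 26 with equal totals and 9 with the replicate block, and the 4 interaction calls became 7 without the filter. Leaving out 1 of a comparison's own libraries at a time gave 1615 to 2685 calls by LPS in pair-fed mice, 1697 to 2597 in ethanol-fed mice, 1 to 5 by diet in saline, 0 to 42 under LPS, 5 to 74 averaged and 2 to 6 for the interaction. Omitting a library of the other groups, which share the variance estimate, reached 2734, 2647 and 6 in the first 3 of these. Deviations of same-numbered libraries correlated between -0.206 and 0.279, and those of differently numbered libraries of separate groups between -0.35 and 0.391. Because these deviations also carry the GC trend, they cannot decide whether replicate numbers pair the libraries. With the replicate block the LPS calls were 2283 and 2184, Cyp2a5 was no longer called under LPS, nor Cyp2d22 in the average. Of 816 alternative values of the members' log2 differences 780 moved by less than the replicate spread and 36 by more. Depth relative to PF library 1 was lowest, 0.49, in PF4hLPS library 2.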

Other observations

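Other genes of drug metabolism and of the androgen-responsive list were separated by diet without being called. They were chosen after their values were seen. Cyp2c23, another renal epoxygenase gene, measured 9.14 ± 1.05 FPKM in PF and 14.2 ± 1.47 in EtOH, and 6.38 ± 0.862 in PF4hLPS and 12.2 ± 4.77 in EtOH4hLPS (SD over 3 libraries), without overlap in either LPS state. Its averaged log2 difference was 0.69 (limma adjusted p = 0.143). The glucuronosyltransferase gene Ugt2b34 had 0.82 (limma adjusted p = 0.126) and the quinone reductase gene Nqo1 0.58 (limma adjusted p = 0.25), both higher with ethanol. Lower with ethanol, and both from the androgen-responsive list, were Acsm3, an acyl-CoA synthetase gene, with -1.39 (limma adjusted p = 0.0562), and Gusb, the beta-glucuronidase gene, with -0.69 (limma adjusted p = 0.0511).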
